A study of Mus musculus with 8 samples.

Results

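The DNA replication and S phase genes were 39 genes chosen by symbol for what their proteins do when a cell copies its genome, and the choice used no threshold on a measured value. All 39 were among the 18877 genes of the deposited expression table, and 36 of them were among the 11754 genes tested, which had a mean of at least 10 normalized reads over the libraries. The 3 members under that minimum were Ung with a mean of 4.59, Gins1 with 6.68 and Dut with 9.79, and the members just above it were Ccne2 with 10.3 and Chaf1b with 11.7. The libraries were RNA-seq of activated muscle stem cells (ASCs), the cells that leave quiescence and divide to rebuild injured muscle, from 4 wild-type and 4 mfn2-/- samples. Mice of both groups carried a Pax7-CreERT2 driver and a mito-Dendra2 reporter and received tamoxifen at 75 mg/kg on each of 5 days. The mfn2-/- group had in addition conditional Mfn2 alleles that the same driver recombines, so that Mfn2, a mitochondrial outer membrane protein needed for fusion, was removed from Pax7-expressing cells and their progeny. The tibialis anterior muscle was then injured with 50 µL of 1.2% BaCl2, and CD34-, Dendra2+, DAPI- cells were sorted 2 days after injury. The labels do not say whether each library came from a different animal or from pooled animals, so the p-values measure the spread between these libraries. In such bulk samples, fewer cells of a type and less RNA per cell cannot be told apart.

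Before S phase, the loading factors Cdc6 and Cdt1 place the ring of Mcm2 to Mcm7 on DNA as an inactive helicase, and Mcm10 and the GINS complex take part in turning it into a moving one. DNA polymerase alpha and primase then lay down primers, polymerases delta and epsilon extend them, and the sliding clamp PCNA, opened by replication factor C (RFC), holds polymerases and many partner enzymes on the template. The genes of this machinery are classical targets of the E2F transcription factors, which are released when G1 cyclin-dependent kinases phosphorylate the retinoblastoma protein. Quiescent muscle stem cells lie outside the cell cycle, and their first division after injury takes longer than later ones.

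The promoters of the members are shown first because a shared E2F sequence is the feature the set is known for. RefSeq promoter sequences (GRCm38.p6, 250 bases before to 50 bases after a start site) were found for 31 of the 39 members, and Mcm4, Tipin, Pole, Gins1, Rfc2, Gins2, Ccne2 and Prim2 had no entry. The letters TTTCCCGC, TTTCGCGC, TTTGCCGC or TTTGGCGC, searched on both strands, stood in the promoters of 13 of the 31 members (41.9%) and in those of 2.61% of all 27025 genes. The same letters were found for 31.0% of 71 other replication genes and for 8.33% of 36 mitosis genes. CCAAT on either strand was in 51.6% of the members' promoters, in 77.8% of those of the mitosis genes and in 41.1% of those of all genes. A stretch of each of 6 promoters is printed, 5′ to 3′ on the gene's strand, with the E2F letters in capitals. Mcm5, Mcm6, Mcm7 and Uhrf1 hold them, and the stretches from Pcna and Mcm2, chosen because the genes are described at length, hold none. In Mcm5 and Mcm6, matches on opposite strands overlap each other.
Mcm5, chr8:75109322-75109401, plus strand: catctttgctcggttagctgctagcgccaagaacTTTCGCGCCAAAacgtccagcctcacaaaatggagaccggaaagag
Mcm6, chr1:128359741-128359820, minus strand: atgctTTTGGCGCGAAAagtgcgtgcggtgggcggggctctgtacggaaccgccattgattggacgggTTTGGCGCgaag
Mcm7, chr5:138171856-138172058, minus strand: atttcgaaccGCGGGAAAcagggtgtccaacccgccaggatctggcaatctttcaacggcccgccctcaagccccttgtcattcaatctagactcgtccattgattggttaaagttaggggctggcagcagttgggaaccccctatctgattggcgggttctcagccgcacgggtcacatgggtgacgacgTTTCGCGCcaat
Uhrf1, chr17:56304108-56304307, plus strand: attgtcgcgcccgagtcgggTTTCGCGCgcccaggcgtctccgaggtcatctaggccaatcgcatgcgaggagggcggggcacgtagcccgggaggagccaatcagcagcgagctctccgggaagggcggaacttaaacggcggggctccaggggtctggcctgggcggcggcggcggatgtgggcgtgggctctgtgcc
Pcna, chr2:132253181-132253330, minus strand: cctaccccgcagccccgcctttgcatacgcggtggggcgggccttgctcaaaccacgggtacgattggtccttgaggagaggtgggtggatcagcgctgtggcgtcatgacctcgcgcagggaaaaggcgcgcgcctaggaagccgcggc
Mcm2, chr6:88898781-88898930, minus strand: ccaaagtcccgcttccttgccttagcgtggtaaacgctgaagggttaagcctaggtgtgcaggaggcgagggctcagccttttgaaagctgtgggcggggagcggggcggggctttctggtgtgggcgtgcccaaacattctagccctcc

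The libraries held 1880464 to 7508215 reads on genes, with the fewest in wild-type replicate 1 and mfn2-/- replicate 4. Summed over Uty, Kdm5d, Eif2s3y and Ddx3y, all on the Y chromosome, reads numbered 807 and 1497 in wild-type replicates 3 and 4 and 1871 and 2336 in mfn2-/- replicates 1 and 2, and were 0 in the other 4 libraries. Mfn2 itself was at 243, 245, 202 and 228 normalized reads in the wild-type libraries and at 104, 118, 172 and 110.0 in the mfn2-/- libraries, so that the groups did not overlap, and their log2 values differed by -0.88 ± 0.30 (SE), short of the threshold (adjusted p = 0.0848 by limma). Pax7, the defining gene of muscle stem cells, was present in every library, at 582 to 803 normalized reads. Summed over 10 fibroadipogenic genes, the wild-type libraries held 178622 to 244062 normalized reads and the mfn2-/- libraries 1045 to 3319, and 8 of the 10 were called lower. Over 8 tenocyte genes the sums were 38180 to 60369 against 306 to 415, all 8 called lower. Over 10 muscle stem cell and myoblast genes they were 9230 to 14480 against 27511 to 41704, 4 of the 10 called higher. The median log2 change of these 10 genes was 0.27, so the rise of the sum was not shared evenly among them. The marker level of the connective tissue cells thus moved with genotype, and its part in the members' changes was not tested. Over 7 myofiber genes the sums were 912 to 1947 against 2338 to 3350, over 6 endothelial genes 539 to 998 against 732 to 1254, over 6 mural genes 3214 to 4029 against 2016 to 3402, and over 5 Schwann cell genes 230 to 561 against 218 to 434. Macrophage, neutrophil, lymphocyte and erythroid genes summed to at most 189, 28, 34.8 and 66.1 normalized reads in any library.

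The first question was whether the replication genes differed between mfn2-/- and wild-type ASCs. Of the 36 tested members, Mcm4 and Pcna rose in mfn2-/- libraries and none fell, by limma with adjustment over all genes tested, and edgeR and DESeq2 on the recovered reads called the same 2, where they called 4.26% and 5.51% of all genes higher. Over all 11754 genes tested, 3.99% were called higher and 6.36% lower. The groups did not overlap for the same 2 members in the direction of mfn2-/-, against 7.36% of all genes, and for E2f1 in the direction of wild-type, against 12.2% of all genes. Among the members, 18 changes were above 0 and 18 below, with a median log2 change of 0.02, where the median over all genes tested was -0.16. The members' median had no stable sign over the alternatives: it was -0.53 with library weights, 0.47 with quantile normalization, 0.49 without mfn2-/- replicate 1, 0.36 without wild-type replicate 4, 0.32 without mfn2-/- replicate 2, -0.29 without wild-type replicate 1 and -0.43 without mfn2-/- replicate 3. For 8 of the 36 the log2 change and the ratio of the group means differed in direction. The median over all genes was -0.11 with libraries scaled to equal totals, 0.05 with upper-quartile scaling and 0.07 with quantile normalization. With upper-quartile scaling 840 genes were called higher and 622 lower, where 469 and 748 were with the deposited scaling, and Mcm4 and Pcna rose under each scaling. An unadjusted p under 0.05 was reached by 4 of the 36 members and by 24.8% of all genes.

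Mcm4 (chr16:15623897-15637400 in GRCm38, minus strand) encodes 1 of the 6 ATPase subunits of the replicative helicase. It was at 255, 308, 294 and 346 normalized reads in wild-type replicates 1 to 4 and at 833, 697, 774 and 409 in mfn2-/- replicates 1 to 4. Every mfn2-/- library was above every wild-type library, and mfn2-/- replicate 4 was the nearest to them. The means were 301 ± 37.6 and 678 ± 188 (SD, n = 4 and 4), a ratio of 2.26. On the log2 scale it rose by 1.13 ± 0.25 (SE, adjusted p = 0.0128 by limma). The exact permutation test of the 2 groups, two-sided, gave p = 0.0286, the smallest that 4 against 4 libraries can give. Groups without overlap always give this value. The rise was present in libraries with Y-linked reads (log2 change of 1.25) and in those without (1.00), and the difference of -0.25 ± 0.45 between them did not pass (limma adjusted p = 0.837). The start of Mcm4 lies head to head with that of Prkdc, a repair kinase gene, which was at 199 ± 75.0 and 77.6 ± 62.1 normalized reads and differed by -2.59 ± 1.23 (limma adjusted p = 0.213).

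Pcna (chr2:132249162-132253314 in GRCm38, minus strand) encodes the sliding clamp. It was at 329.8, 362, 172 and 348 normalized reads in wild-type replicates 1 to 4 and at 694, 652, 742 and 487 in mfn2-/- replicates 1 to 4. The groups did not overlap, and the lowest value was that of wild-type replicate 3. The means were 303 ± 88.1 and 644 ± 111 (SD, n = 4 and 4), a ratio of 2.13. Its log2 change of 1.13 ± 0.27 (SE) passed limma (adjusted p = 0.0185), and the exact permutation p was 0.0286, as for any gene without overlap. The change was 1.45 in libraries with Y-linked reads and 0.80 in those without, a difference of -0.66 ± 0.49 that did not pass (limma adjusted p = 0.614). When mfn2-/- replicate 1, 2 or 3 was left out, the change was 1.05 to 1.11 and the adjusted p 0.0518 to 0.0587, so that the call for Pcna was lost without any 1 of these 3 libraries.

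**Figure D1:**
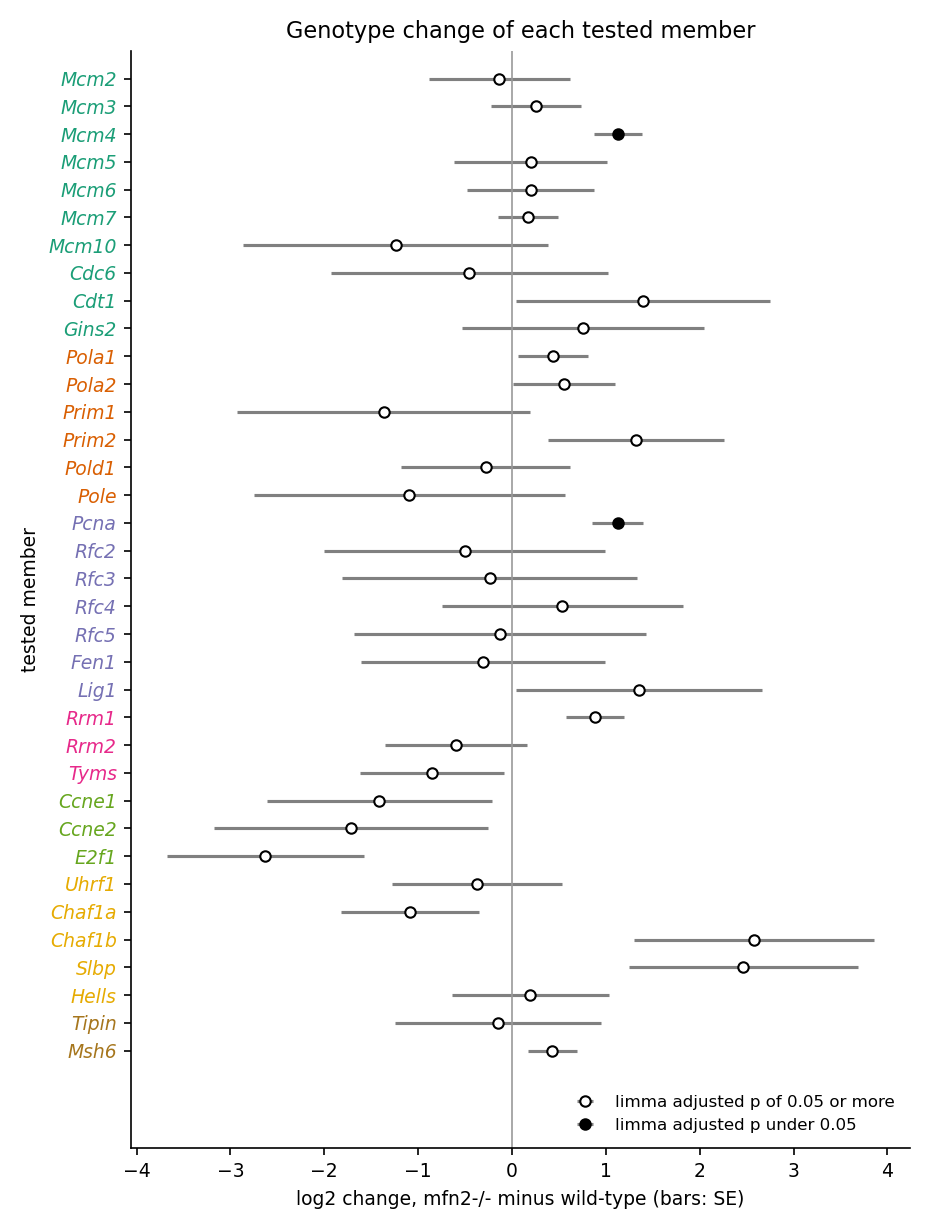
The plot gives the log2 change from wild-type to mfn2-/- for each of the 36 tested members on the x axis, with bars for the standard error, grouped and coloured by role from the helicase at the top to repair at the bottom. Filled points mark a limma adjusted p under 0.05: Mcm4 and Pcna, both at 1.13, stand apart with short bars, while members with few reads have bars of up to 1.66.

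None of the other 5 subunits of the MCM2-7 ring passed the test for genotype. Their log2 changes were -0.14 ± 0.75 for Mcm2, 0.25 ± 0.48 for Mcm3, 0.20 ± 0.81 for Mcm5, 0.20 ± 0.67 for Mcm6 and 0.17 ± 0.32 for Mcm7, with limma adjusted p values of 0.784 to 0.932. Levels were also put on a scale of normalized reads per kilobase of exon, with all annotated exons of a gene merged. The merged length can exceed that of the transcripts present, so comparisons between genes are approximate. On this scale the wild-type mean was 83.8 for Mcm4, 61.5 for Mcm7, 34.3 for Mcm3, 21.2 for Mcm2, 17.7 for Mcm5 and 15.2 for Mcm6. The mfn2-/- mean was 189 for Mcm4, 73.0 for Mcm7, 45.7 for Mcm3, 21.9 for Mcm2, 20.4 for Mcm5 and 21.0 for Mcm6. Mcm4 was the highest of the 6 in every library. The proteins work as a ring with 1 copy of each. The ratio of the Mcm4 level to the median of the other 5 was 2.19 to 10.01 in wild-type libraries. In mfn2-/- libraries it was 3.77 to 32.5, so the ranges overlapped. Within replicates 1 and 2 it was 3.24 and 10.01 in wild-type and 32.5 and 18.4 in mfn2-/-. Within replicates 3 and 4 it was 2.19 and 2.63 against 4.62 and 3.77, so the overlap lay between the pairs. The highest ratios were in mfn2-/- replicates 1 and 2 (32.5 and 18.4), where Mcm4 was at 232 and 194 per kilobase. Mcm2, Mcm5 and Mcm6 were low there (4.03 to 10.6), and also in wild-type replicate 2 (5.52 to 8.57), where Mcm4 was at 85.8.

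**Figure D2:**
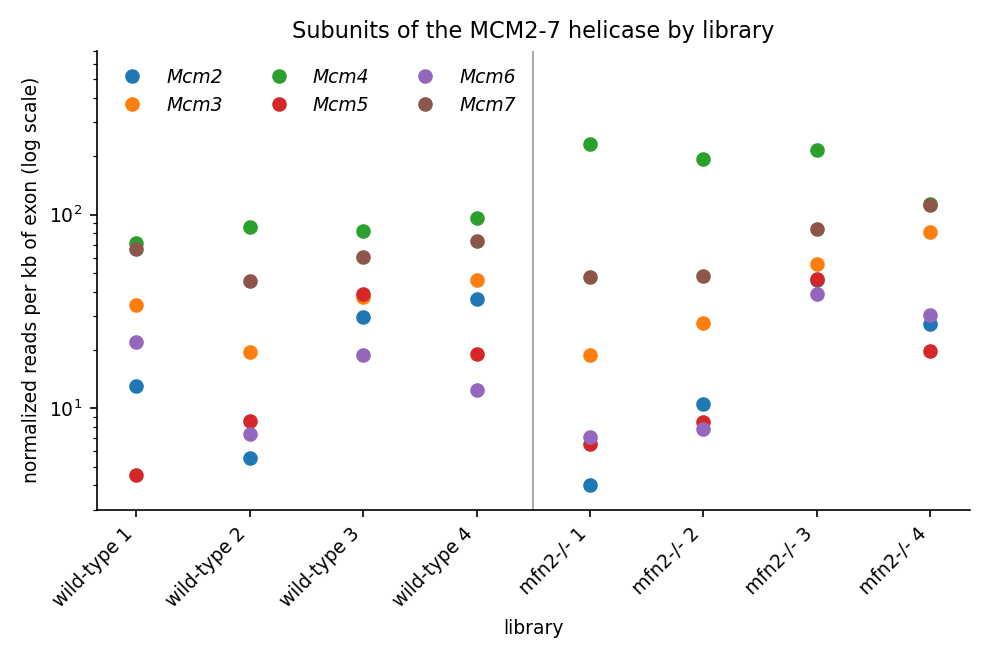
The plot gives normalized reads per kilobase of exon on a log axis for the 6 subunits of the MCM2-7 helicase in each of the 8 libraries on the x axis. Mcm4 is the top point everywhere and higher in the mfn2-/- libraries, while Mcm2 and Mcm5 lie low in replicates 1 and 2 and high in replicates 3 and 4 of both genotypes.

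The second question came from the libraries themselves, since replicates 1 and 2 and replicates 3 and 4 differ in Y-linked reads and the order is opposite in the 2 genotypes. The difference tested was the genotype change in libraries without Y-linked reads minus that in libraries with them. By its arithmetic, this equals the rise from replicates 1 and 2 to replicates 3 and 4, summed over both genotypes, so that an effect of Y-linked status on the genotype change and a common difference between the library pairs cannot be told apart. The members' differences were positive for 30 of 36, with a median of 2.33 on the log2 scale, while 46.0% of all genes were positive with a median of -0.14. A single member, Uhrf1, passed on the positive side, where 0.264% of all genes did, and none passed on the negative side, where 1.21% of all genes did. The split over all genes was 31 positive and 142 negative with the deposited scaling and 43 and 74 with quantile normalization. With edgeR the member called was again Uhrf1 (0.272% of all genes positive), and with DESeq2, which called 2.66% of all genes positive, there were 6 (Mcm2, Mcm3, Mcm5, Pola2, Rrm1 and Uhrf1). An unadjusted p under 0.05 was reached by 10 of the 36 members and by 12.0% of all genes. The median genotype change of the members was -0.91 in libraries with Y-linked reads, with 29 of 36 below 0. It was 0.98 in libraries without, with 29 of 36 above 0. The medians over all genes were -0.16 and -0.16. Of all 11754 genes tested, 6655 were below 0 in libraries with Y-linked reads and 5269 above 0 in those without. The libraries without Y-linked reads included wild-type replicate 1 and mfn2-/- replicate 4, which had the fewest reads and 13 and 9 members at 0. The members' median difference was 1.56 without wild-type replicate 1 and 2.42 without mfn2-/- replicate 4. The part of depth in it was not tested.

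Within wild-type, replicates 3 and 4 had a higher mean than replicates 1 and 2 for 29 of 36 members, against 55.1% of all genes. Within mfn2-/- this held for 27 members, against 41.2% of all genes, and in both genotypes for 22, against 22.2%. For 9 members replicates 3 and 4 both lay above replicates 1 and 2 in each genotype, against 4.33% of all genes: Mcm2, Mcm3, Mcm5, Pola2, Rrm1, Rrm2, Uhrf1, Chaf1a and Chaf1b. The reverse order held for 0 of the 36 members, against 6.14% of all genes. The 39 members together made up 0.0622% to 0.154% of the normalized reads of a library. Their sum without Mcm4 and Pcna was 2074, 2213, 3062 and 2912 in wild-type replicates 1 to 4 and 1763, 2007, 4199 and 4420.0 in mfn2-/- replicates 1 to 4. The highest value of a member was found in mfn2-/- replicate 3 for 13 members and in mfn2-/- replicate 4 for 8.

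**Figure D3:**
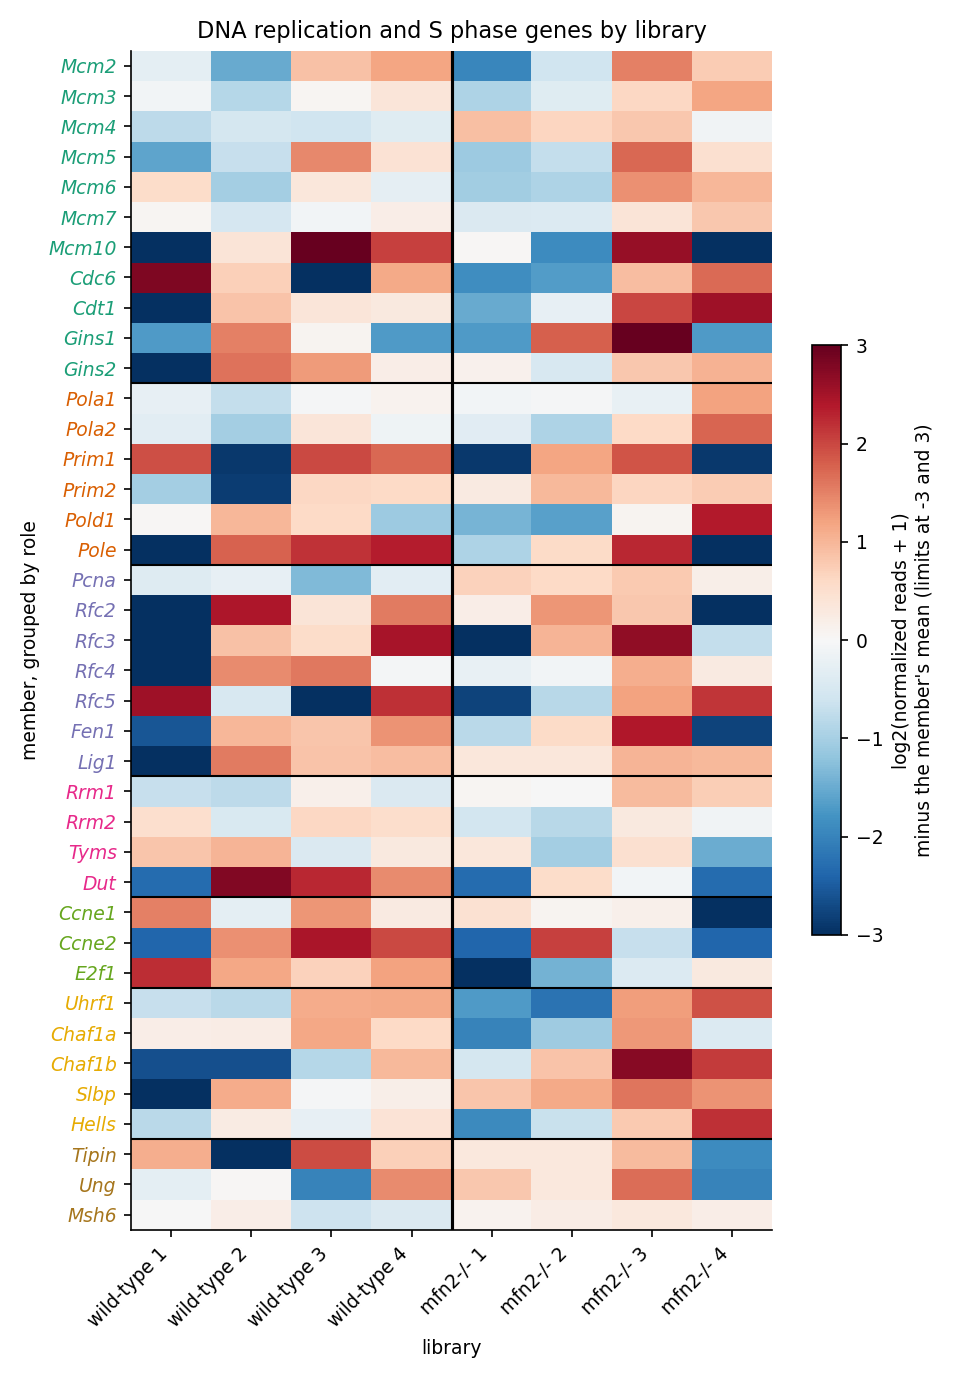
Rows are the 39 members grouped and coloured by role, columns are the 8 libraries, and colour is log2(normalized reads + 1) minus the member's own mean, from blue at -3 to red at 3. Rows of Mcm4 and Pcna change colour at the genotype line, whereas many others, such as Mcm2, Mcm5 and Uhrf1, are blue in replicates 1 and 2 and red in replicates 3 and 4 on both sides of it, and the darkest blue cells gather in wild-type replicate 1 and mfn2-/- replicate 4, which have the fewest reads.

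Uhrf1 encodes a protein that reads hemimethylated DNA behind the fork and brings the maintenance methyltransferase to it. It was at 45.5, 41.5, 160.1 and 163 normalized reads in wild-type replicates 1 to 4 and at 22, 15, 178 and 280.4 in mfn2-/- replicates 1 to 4. Replicates 3 and 4 were above replicates 1 and 2 in both genotypes without overlap, and their mean over both genotypes was 6.31-fold that of replicates 1 and 2. The difference was 5.42 ± 0.93 (SE, limma adjusted p = 0.0193), with a genotype change of -3.08 in libraries with Y-linked reads and 2.34 in those without. Over all 8 libraries the genotype change was -0.37 ± 0.91 (limma adjusted p = 0.836). The call was lost when any of wild-type replicates 1, 3 and 4 or mfn2-/- replicates 1 and 2 was left out, with differences of 5.16 to 5.68 and adjusted p of 0.0505 to 0.178.

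Among the helicase subunits, Mcm2 was at 91.0, 38.4, 207 and 255 normalized reads in wild-type replicates 1 to 4 and at 28, 73.5, 318 and 191 in mfn2-/- replicates 1 to 4. Replicates 3 and 4 exceeded replicates 1 and 2 in each genotype, yet the difference of 4.35 ± 0.92 did not pass (limma adjusted p = 0.0520). Mcm5 was at 18.2, 34.2, 155 and 75.9 in wild-type and at 26, 34, 186 and 78.8 in mfn2-/- replicates 1 to 4. The values of the 2 genotypes were close for each replicate number, with a difference of 4.07 ± 1.20 (limma adjusted p = 0.183). Mcm3 (2.23 ± 0.70, adjusted p = 0.221), Mcm6 (2.44 ± 1.06, adjusted p = 0.40) and Mcm7 (1.29 ± 0.46, adjusted p = 0.283) had positive differences that did not pass limma. When wild-type replicate 1 and mfn2-/- replicate 4, the libraries with the fewest reads, were left out, an alternative chosen after seeing the data, limma called Mcm2, Mcm3, Mcm5, Mcm6, Tipin and Uhrf1 for this difference, and 2.15% of all genes on the same side.

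**Figure D4:**
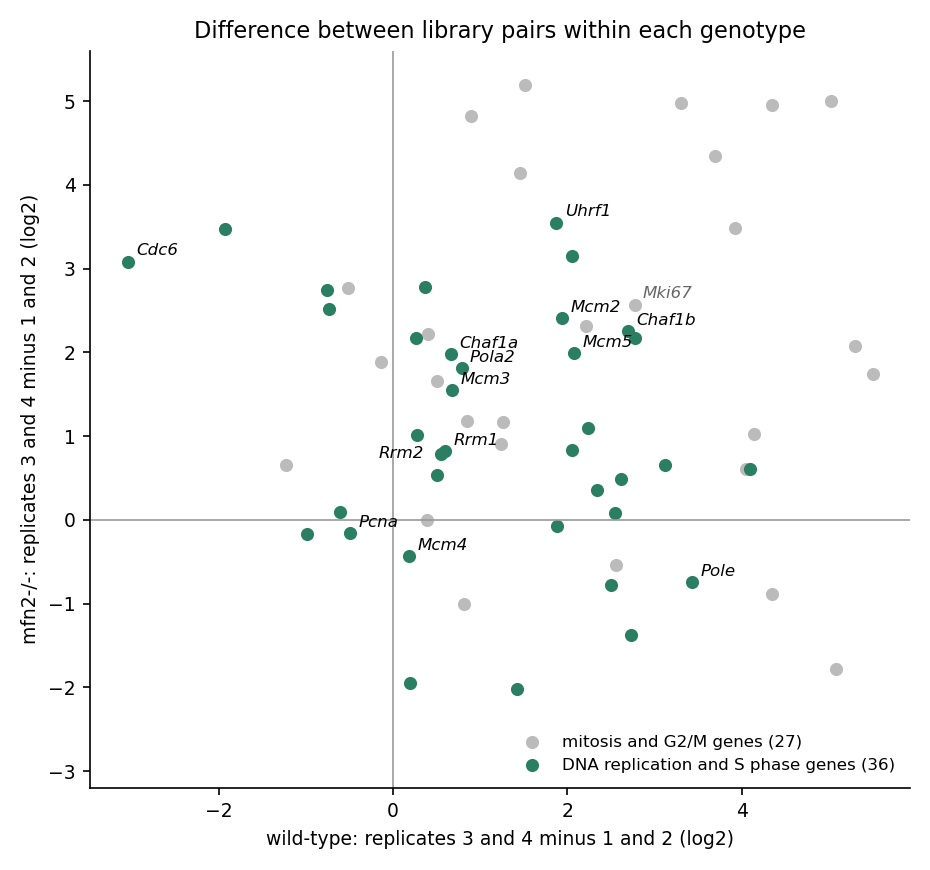
Each point is a gene, with the log2 difference of replicates 3 and 4 over 1 and 2 in wild-type on the x axis and in mfn2-/- on the y axis, for the 36 tested members in green and 27 mitosis and G2/M genes in grey. The sum of the 2 coordinates is the difference that was tested; 22 members lie in the upper right quadrant, while Mcm4 and Pcna lie near the origin.

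The remaining licensing and activation genes were at low levels. Cdc6, which loads the helicase, was at 0 to 91.0 normalized reads in wild-type and 2.67 to 42.1 in mfn2-/- libraries, and its partner Cdt1 at 0 to 35.3 and 6.0 to 115. Mcm10, which joins the helicase as it is activated, was at 0 to 90.6 and 0 to 56.7. The GINS subunit Gins2 was at 0 to 74.7 and 16.6 to 49.5, and its partner Gins1, not tested, reached 32.4 in mfn2-/- replicate 3 and was at 0 in 4 libraries. At such levels 3 reads, taken as the limit that a count of 0 allows, correspond to 1.60 to 6.82 normalized reads depending on the library, and this limit covers counting error only. Of the 39 members, 18 were at 0 in at least 1 library, 13 of them in wild-type replicate 1 and 9 in mfn2-/- replicate 4, and 17 were above the limit in all 8 libraries.

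None of the primase and polymerase genes passed the test for genotype. Pola1, the catalytic subunit of polymerase alpha and the most abundant of them, was at 146, 105, 167 and 183 normalized reads in wild-type replicates 1 to 4 and at 163, 168, 147 and 394 in mfn2-/- replicates 1 to 4. All but 1 value lay between 105 and 183, and mfn2-/- replicate 4 stood above them, with a log2 change of 0.44 ± 0.37 (limma adjusted p = 0.504). Pola2, its accessory subunit, was at 105, 64.3, 169.9 and 119 in wild-type and at 103, 68.7, 200.4 and 445 in mfn2-/- replicates 1 to 4. Pola2 was thus higher in replicates 3 and 4 of both genotypes, with a difference of 2.60 ± 0.78 (limma adjusted p = 0.194). The primase subunits Prim1 and Prim2 ranged from 0 to 28.6 and from 3.11 to 56.9, and the catalytic subunits of polymerases delta and epsilon, Pold1 and Pole, from 15 to 257 and from 0 to 87.1. All 6 genes of the group had a positive difference between the library kinds.

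At the clamp, Pcna was the only gene of its group called for genotype, among 7. The RFC subunits Rfc2, Rfc3, Rfc4 and Rfc5 lay between 0 and 91.0 normalized reads in all libraries, with log2 changes of -0.51, -0.24, 0.54 and -0.13. The mean of Rfc4 was nevertheless the lower one in mfn2-/- libraries, at 0.765 of that in wild-type. Fen1, the flap nuclease that trims Okazaki fragments, had a log2 change of -0.31 ± 1.30. Lig1, the ligase that seals them, was at 0, 192, 118 and 122 in wild-type replicates 1 to 4 and at 82.0, 82.2, 132 and 128 in mfn2-/- replicates 1 to 4, and had a change of 1.35 ± 1.31 (limma adjusted p = 0.566). Its group means were nearly equal, at 108 ± 79.6 and 106 ± 27.8 (SD, n = 4 and 4), and wild-type replicate 1 was the only library in which it was at 0. Per kilobase of exon, Pcna had the highest level of all 39 members (126 in wild-type and 268 in mfn2-/-), followed by Mcm4.

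For nucleotide supply, Rrm1, the large subunit of ribonucleotide reductase, was at 173, 162, 309.5 and 209 normalized reads in wild-type replicates 1 to 4 and at 294, 279.7, 544 and 471 in mfn2-/- replicates 1 to 4. The groups overlapped through wild-type replicate 3, and replicates 3 and 4 were above 1 and 2 in each genotype. Its log2 change was 0.88 ± 0.31 and did not pass (limma adjusted p = 0.0914), and it passed in 2 alternatives, upper-quartile scaling (1.09, adjusted p = 0.0335) and a fit with Y-linked status and its interaction with genotype as terms, chosen after seeing the data (adjusted p = 0.0210). With library weights the change was 0.44. Rrm2, the small subunit, whose level follows S phase, was at 40.9 ± 12.2 and 26.8 ± 9.58 (SD, n = 4 and 4), with a change of -0.60 ± 0.76. Tyms, the thymidylate synthase, was at 55.2 ± 22.4 and 33.0 ± 20.4, and Dut, which removes dUTP, was not tested and reached 33.2 in wild-type replicate 2.

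The 3 G1/S control genes all had negative genotype changes, and none passed. E2f1, the founding member of the E2F factors, was at 100.1, 47.7, 34.3 and 49.1 normalized reads in wild-type replicates 1 to 4 and at 0.667, 7.11, 15.5 and 25.7 in mfn2-/- replicates 1 to 4. Every mfn2-/- library was below every wild-type library, with means of 57.8 ± 29.0 and 12.2 ± 10.8 (SD, n = 4 and 4). The change of -2.63 ± 1.05 on the log2 scale did not pass limma (adjusted p = 0.137). The exact permutation p was 0.0286, the value that any gene without overlap has, so it adds nothing to the lack of overlap. The value 0.667 in mfn2-/- replicate 1 stands for a single read. The cyclin E genes Ccne1 and Ccne2, whose products drive entry into S phase, had changes of -1.41 ± 1.20 and -1.71 ± 1.46.

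**Figure D5:**
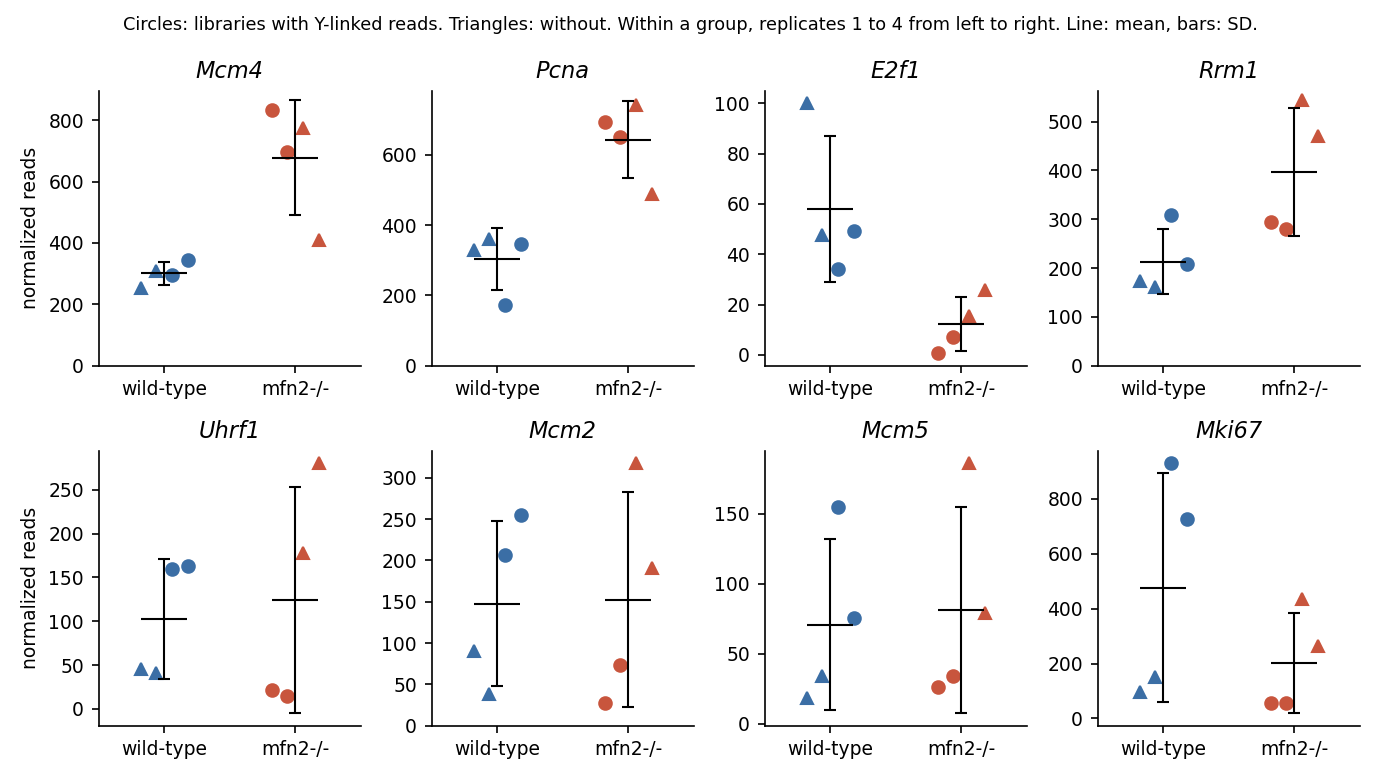
Each panel gives the normalized reads of 1 gene in the 8 libraries, circles for libraries with Y-linked reads and triangles for those without, with the mean as a line and the SD as bars. Mcm4 and Pcna are higher and E2f1 lower in every mfn2-/- library, the groups of Rrm1 overlap through wild-type replicate 3, and Uhrf1, Mcm2, Mcm5 and the mitosis marker Mki67 are split by library pair in both genotypes.

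Of the chromatin and histone supply genes, Slbp, which binds the stem-loop of replication-dependent histone mRNAs, was the most abundant by mean reads. It was at 0, 156, 70.2 and 81.2 normalized reads in wild-type replicates 1 to 4 and at 128, 159.6, 221 and 183 in mfn2-/- replicates 1 to 4. The ranges overlapped through wild-type replicate 2, and the change of 2.46 ± 1.22 did not pass (limma adjusted p = 0.234). Without wild-type replicate 1, the library at 0, the change was 0.81, and it was 1.21 with edgeR and 1.16 with DESeq2. Chaf1a and Chaf1b, subunits of the chromatin assembly factor that follows the fork, had changes of -1.09 ± 0.73 and 2.58 ± 1.28. The remodeller gene Hells was at 244 in mfn2-/- replicate 4 and at 13.3 to 90.6 in the other libraries. All 5 genes of the group had a positive difference between library kinds, with a median of 3.14.

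In fork protection and repair, Msh6, a subunit of the mismatch recognition dimer, was at 264, 307, 175 and 199 normalized reads in wild-type replicates 1 to 4 and at 289, 311, 333 and 309.7 in mfn2-/- replicates 1 to 4. The 4 mfn2-/- values were close to each other, and wild-type replicate 2 lay within their range. Its log2 change of 0.43 ± 0.26 did not pass (limma adjusted p = 0.338). Tipin, a fork protection gene, was at 3.11 to 171 in wild-type and 11 to 85.5 in mfn2-/- libraries, and Ung, the uracil glycosylase, at no more than 11.8.

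Of 85 other replication genes, 83 were in the table and 70 were tested. Of these, 2 were called higher and 0 lower, where 3.99% and 6.36% of all genes were, and the median change was 0.03. The difference was positive for 56 of the 70 with a median of 1.10. It had 0 calls by limma (12 with an unadjusted p under 0.05, where 12.0% of all genes had one). DESeq2 gave 4 positive calls and 1 negative call, where it called 2.66% of all genes positive. Top1, the topoisomerase that relieves supercoils ahead of the fork and of transcription, was at 2536, 2077, 1617 and 1626 normalized reads in wild-type and at 4784, 3974, 5035 and 5448 in mfn2-/- replicates 1 to 4. It rose by 1.31 ± 0.20 on the log2 scale (limma adjusted p = 0.000981), with no overlap. Nasp, a histone chaperone, was at 262, 401, 424 and 359 against 593, 562, 606 and 919.9 and rose by 0.88 ± 0.24 (limma adjusted p = 0.0329). These groups did not overlap either.

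Mitosis and G2/M genes, which act after replication is complete, followed the library pairs. Of 41 such genes, 27 were tested, and 0 were called for genotype by limma, edgeR or DESeq2 (0 with an unadjusted p under 0.05 by limma). For the difference limma called 2, edgeR 3 and DESeq2 12, all positive, and limma without its trended prior called 0. Of all genes, limma, edgeR and DESeq2 called 0.264%, 0.272% and 2.66% positive. The difference was positive for 25 of 27 with a median of 4.53, and 14 had an unadjusted p under 0.05 by limma. Their summed level was 1093 to 1365 normalized reads in replicates 1 and 2 and 2797 to 3581 in replicates 3 and 4 of the 2 genotypes. Mki67, the marker of dividing cells, was at 95.5, 149, 930.2 and 727 in wild-type and at 56.0, 56.1, 435 and 262 in mfn2-/- replicates 1 to 4, a difference of 5.34 ± 0.56 (limma adjusted p = 0.00163). Smc2, a condensin subunit, was at 40.9, 42.5, 230.3 and 169.9 against 47.3, 51.4, 152 and 409, a difference of 4.53 ± 0.86 (limma adjusted p = 0.0330). Replicates 3 and 4 were thus high for these genes as for Mcm2, Mcm5 and Uhrf1.

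Among 47 replication-dependent histone genes, which are expressed in S phase and whose messages mostly lack a poly(A) tail, 13 were tested. They are near-identical copies, so single values are uncertain. None was called for genotype by limma, edgeR or DESeq2 (1 had an unadjusted p under 0.05 by limma). For the difference limma called 1, edgeR 0 and DESeq2 2, where they called 0.264%, 0.272% and 2.66% of all genes positive. An unadjusted p under 0.05 was reached by 1, 2 and 6 of the histone genes. The gene called by limma was Hist1h2ak, a call lost without the trended prior. Hist1h2ak was at 0 in replicates 1 and 2 of both genotypes. In replicates 3 and 4 it was at 14.7 and 14.4 in wild-type and at 53.1 and 23.8 in mfn2-/-. It reached the minimum mean for testing only through replicates 3 and 4, so its call adds nothing to these values. The summed histone level was 239 to 725 normalized reads in replicates 1 and 2 and 415 to 1459 in replicates 3 and 4, ranges that overlap, with the highest in mfn2-/- replicate 4. In that library, 7SK RNA took 6.03% of the normalized reads, where it took 0.365% to 1.54% in the others, and 9646 genes had a read, where 12613 to 15270 had one in the others.

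Of 7 genes for inhibitors of cyclin-dependent kinases, 6 were tested, 1 was called higher and 1 lower, where 3.99% and 6.36% of all genes were. Cdkn1a, whose product p21 also binds PCNA, was at 234, 305, 100.5 and 129 normalized reads in wild-type and at 732, 731, 637 and 348 in mfn2-/- replicates 1 to 4. It rose by 1.74 ± 0.37 on the log2 scale (limma adjusted p = 0.0092), with no overlap. Cdkn1c, which encodes p57, was at 1048, 863, 2672 and 2182 against 525, 288, 374 and 889 and fell by 1.68 ± 0.39 on that scale (limma adjusted p = 0.0161), with wild-type replicate 2 below mfn2-/- replicate 4. Within the 2 kinds of library the change of Cdkn1a was 2.67 with and 0.82 without Y-linked reads.

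The difference between library kinds was also read against the E2F letters. Its median was 2.44 for 13 tested members with a match, from -0.51 to 5.42, and 2.20 for 16 without, from -1.75 to 4.95. In the annotation, 19 of the 39 members overlap another gene, and pseudogene copies of Pcna exist, so reads could be shared depending on how they were counted.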

How the data were processed

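Total RNA of 8 sorted samples was made into stranded libraries. Per the labels, the submitters' processing notes name Trim Galore, HISAT2, featureCounts, DESeq2 and build mm9; versions, annotation and strand setting were not given in the sources used here. The authors deposited 1 table of read counts divided by a size factor per library, a signal called normalized reads here. Dividing each column by its smallest step returned whole reads for 100% of values (tolerance 0.01 reads). All 8 columns were matched to samples by name, and 0 value columns were left unmapped.

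Log2(normalized reads + 1) of genes with a mean of at least 10 was fitted with limma 3.58.1 (trended prior; R 4.3.3), two-sided, with Benjamini-Hochberg adjustment over all 11754 genes at 0.05. Errors of changes are standard errors. A second fit had genotype, presence of Y-linked reads and their interaction. Changes on this scale depend on the pseudocount for low genes and on single libraries at 0, so they can be smaller or larger than the ratio of the group means. For single genes, an exact permutation test over 70 arrangements was used. Members, lists and tests were chosen with earlier results of these data known. Values in all libraries are given for members called in either fit and the most abundant of each role, and for list genes called with a mean of at least 100 (up to 3). Other members, among them Mcm2, Mcm5, Pola2 and Lig1, and Hist1h2ak were named after their values were seen. Gene positions and exon lengths came from GENCODE M21 and promoters from RefSeq, both on GRCm38 rather than mm9. The limma code was run on simulated data with known changes, and limits that it had to meet were set for the genotype fit only. Alternatives included edgeR 4.0.16 and DESeq2 1.42.0 on the recovered reads. Python 3.11.15 was used for tables. Protein sequences were not used here.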

Additional observations from a re-analysis of the deposited data

Results flagged for a closer look

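Dixon's test was applied to 32 groups, and chance passes about 1 in 20. It marked Pcna in wild-type replicate 3, at 172 normalized reads where the other 3 wild-type libraries were at 329.8 to 362 (ratio 0.830). It also marked Pola1 in mfn2-/- replicate 4, at 394 where the other 3 mfn2-/- libraries were at 147 to 168 (ratio 0.915). Among the members and the mitosis and G2/M genes, the genotype change of 3 genes differed between libraries without and with Y-linked reads by limma's interaction term: Uhrf1 by 5.42 (adjusted p = 0.0193), Mki67 by 5.34 (adjusted p = 0.00163) and Smc2 by 4.53 (adjusted p = 0.0330) on the log2 scale.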

How the results depend on the processing

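Mcm4 and Pcna had positive changes under every alternative run, of 1.01 to 1.36 and 0.88 to 1.33 on the log2 scale, but neither passed limma without the trended prior (adjusted p of 0.0821 and 0.101). The number of members called for genotype was 2, and 0 without the trend (5 of 36 had an unadjusted p under 0.05), 3 with upper-quartile scaling and with Y-linked status and its interaction as terms (Mcm4, Pcna and Rrm1), 6 with library weights (Chaf1a, E2f1, Mcm4, Msh6, Pcna and Uhrf1) and 1 to 2 when each library was left out, with Pcna lost without mfn2-/- replicate 1, 2 or 3. For the difference between library kinds, 1 member was called, and 2 with a pseudocount of 10 or a mean of at least 50. There were 0 without the trend (12 with an unadjusted p under 0.05) and 6 with DESeq2. Fits of this difference with libraries left out kept a single library of a kind in a genotype, so their calls rest on single libraries. The members' median difference of 2.33 became 2.55 with a pseudocount of 0.1, 1.5 with one of 10 and 1.98 with no filter. It was 1.65 with edgeR, 1.66 with DESeq2 and 1.56 to 2.65 when each library was left out. Without wild-type replicate 1 and mfn2-/- replicate 4, a setting chosen after seeing the data, it was 1.95. The cause of these shifts was not tested. Over all 11754 genes tested, 1217 were called for genotype. There were 633 without the trend, 3037 with library weights and 1879 with Y-linked status and its interaction as terms. Upper-quartile scaling called 1462 of 11731 genes. Leaving out wild-type replicate 3 or 4 gave 671 of 11684 and 749 of 11674. For the difference, 173 of 11754 genes were called, 31 of them positive. With a pseudocount of 10 there were 219, of which 51 positive. With a mean of at least 50 there were 192 of 7640, of which 35 positive. There were 109 of 18877 without a filter, 0 without the trend (1191 at an unadjusted p under 0.05) and 833 with DESeq2. Without the 2 shallowest libraries there were 591 of 11637. When each library was left out there were 31 to 1347, the most without mfn2-/- replicate 3. Over all genes tested, no pairing by replicate number was seen: deviations from the group means correlated at -0.03, -0.05, 0.04 and -0.11. Not every library correlated best with its own number. A correlation over 11754 genes does not test a pairing in part of them, such as the members that were high in replicates 3 and 4. With a replicate block, 2 members and 1043 genes were called. Of the 39 members, 18 were at 0 in at least 1 library, 5 of them in mfn2-/- replicate 1 with 6199866 reads, and the part of depth in this was not tested.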
